A study of Mus musculus with 20 samples.

Results

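The comparison set 3 peritoneal mesotheliomas of mice without Ogg1 against 3 of wild-type mice, 6 of the 20 tumours of a mouse asbestos study. The 6 were chosen by their genotype labels, Ogg1KO 1 to 3 and a plain wild-type set (WT_plain 1 to 3, in 2 of the 3 spelled Wile type). A further 4 wild-type tumours that carry the name of a Dmt1 cohort were not used as controls. Every mouse had received crocidolite, an iron-rich asbestos, into the peritoneal cavity. The dose was 1.5 mg at 6 and again at 7 weeks of age, 3 mg in all, and observation lasted 600 to 700 days. Tumour DNA carried the dye Cy5. DNA from non-neoplastic kidney of C57BL/6 mice, with the tumour's genotype per the labels, carried Cy3. The labels do not say whether tumour and kidney came from the same animal, whether each tumour came from its own animal, or which part of Ogg1 was deleted. They name no sex and no strain of the tumour DNA.

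Ogg1 encodes the DNA glycosylase that removes oxidised guanine from DNA and so opens base excision repair. Iron-rich asbestos is known for oxidant damage, and mesothelioma in mice and people is known for loss of the Cdkn2a locus, which encodes an inhibitor of cyclin-dependent kinases and the Arf protein that stabilises p53. Array comparative genomic hybridisation reads DNA copy number, not expression. A log2 ratio of tumour over kidney above 0 means more signal from the tumour, and it rises equally when the kidney signal falls.

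Each array read 170305 positions of the mouse build mm9 with probes mostly 60 letters long, and neighbouring positions lay 10.9 kb apart at the median. The noise between neighbouring probes ran from 0.28 to 0.38 log2 units over the 6 arrays. A patch of the array surface held 7.12% of the spots of WT_plain 1 and 4.71% of WT_plain 2 and was left out, and 157219 probes were measured on all 6 arrays. All 6 arrays were of scan day 2, while the 4 wild-type arrays of the Dmt1 cohort (WT_Dmt1) lay on slide 1 and were of scan day 1. WT_plain lay on slide 3, Ogg1KO 1 and 2 on slide 4 and Ogg1KO 3 on slide 5, so no slide held both genotypes. The groups were linked across slides through MutyhKO tumours alone, which lay on slides 3 and 4, and with the slide as a fixed term 0 genes and 0 bins were called (limma, 788 genes and 77 bins at an unadjusted p under 0.05). Ogg1KO 3 stood apart. Over the 9021 genes with at least 3 probes its log2 ratios correlated with those of the other 5 tumours at r of 0.38 to 0.55, against 0.78 to 0.86 for the 10 pairs among those 5. It had a weight of 0.36 on the profile shared by the 14 tumours of other groups, where the other 5 had 0.95 to 1.15. Without it the counts over all genes and bins given next did not move: 0 genes higher, 2 lower and 1 bin. The genes called did change, since Skint3, given below, no longer passed.

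The array has 1 probe for Ogg1, at chr6:113280022-113280081. It is shown because it is the one reading of the deleted gene. It shares no run of 16 or more letters with another probe.

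Ogg1 probe: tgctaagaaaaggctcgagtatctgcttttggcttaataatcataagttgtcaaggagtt

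Its log2 ratios were -0.85, -1.34 and -1.15 in WT_plain 1 to 3 and -1.27, -1.27 and -0.04 in Ogg1KO 1 to 3. The groups overlapped, and the other 14 tumours ran from -3.30 to 1.46. In the tumour channel alone the probe stood at -0.43, -0.81 and -0.74 against each WT_plain array's autosomal median and at -1.13, -1.12 and -0.42 in Ogg1KO 1 to 3. The signal was thus present in all 3 knockout tumours, and its overlap with wild type rested on Ogg1KO 3 alone. In the kidney channel the probe stood at 0.39, 0.50 and 0.40 in WT_plain 1 to 3. On the arrays of Ogg1KO 1 to 3 it stood at 0.09, 0.14 and -0.38, lower without overlap. Where the probe lies relative to the deleted part is not known, so these values check no label.

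Across the 9021 genes, 2 were called lower in Ogg1KO and 0 higher (limma, Benjamini-Hochberg adjusted p under 0.05), which is 0.0222% and 0%. At an unadjusted p under 0.05 there were 844 genes, 9.36% of those tested. Both called genes, Skint6 and Skint3, belong to the Skint cluster of chromosome 4. Skint genes encode butyrophilin-like membrane proteins of skin and thymus epithelium, and Skint1 is known to be needed for the skin's gamma-delta T cells. Of 11 Skint genes with probes, 8 had at least 3 of them. Among these 8 the difference was negative in 7, and in 5 all 3 Ogg1KO tumours lay below all 3 WT_plain tumours, which held for 4.77% of all genes. Their median difference was -0.56, against 0.01 over all genes.

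For Skint6 (38 probes) the gene means were 0.90, 0.89 and 0.96 in WT_plain 1 to 3 and 0.13, 0.25 and -0.05 in Ogg1KO 1 to 3. Every WT_plain tumour was high, and the knockout tumours lay near 0. The 14 tumours of other groups, with the WT_Dmt1 tumours among them, reached 0.29 at most. The means were 0.91 ± 0.04 and 0.11 ± 0.15 (SD, n = 3 each), a difference of -0.80 (SE 0.10, limma with Benjamini-Hochberg adjusted p = 0.0012). For Skint3 (6 probes) the values were 1.30, 0.84 and 1.11 against -0.12, 0.05 and -0.30. The difference was -1.20 (SE 0.20, limma with Benjamini-Hochberg adjusted p = 0.0491), and it missed the threshold when any 1 of the 6 tumours was left out, at adjusted p of 0.0662 to 0.207. Skint6 passed without each tumour, at 0.0017 to 0.0169, and differed by -0.72 without Ogg1KO 3. In the fit of the 6 tumours alone it did not pass (limma adjusted p = 0.218). Nor did it with the replicate block or with the slide as a random block (limma adjusted p = 0.708 and 0.264). After normexp background correction its difference was -0.19 (limma adjusted p = 0.456), and against all 7 wild-type tumours it was -0.33 (limma adjusted p = 0.737). It also missed the threshold in the fit of the 12 tumours of the scan day and with the slide as a fixed term, where 0 genes were called.

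Neighbouring Skint4 (7 probes) stood at 1.16, 1.15 and 1.16 in WT_plain and 0.58, 0.41 and -0.39 in Ogg1KO. Skint9 (6 probes) stood at 0.84, 0.88 and 1.30 against 0.28, 0.34 and -0.05. In both genes the groups did not overlap, but neither passed, with limma adjusted p of 0.0534 and 0.0836. The 1 Mb bin from 112 to 113 Mb of chromosome 4, with 69 probes, was the single bin called of 2392, 0.0418%. Its values were 0.79, 0.81 and 0.89 against 0.21, 0.30 and -0.04, a difference of -0.68 (SE 0.085, limma with Benjamini-Hochberg adjusted p = 0.00015). With the slide as a fixed term and against all 7 wild-type tumours no bin was called (77 and 85 bins at an unadjusted limma p under 0.05).

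Along the cluster, segmentation of the difference profile placed it in a pair of stretches. The first, chr4:111758445-112202894, holds Skint4, Skint3 and Skint9. Its mean log2 ratio was 1.13, 1.00 and 1.21 in WT_plain and 0.27, 0.30 and -0.27 in Ogg1KO, and the other 14 tumours ran from -0.47 to 0.31. All of its 31 probes measured on the 6 arrays had a lower Ogg1KO mean. The second, chr4:112460897-113235586, holds Skint6 and part of Skint5, at 0.88, 0.89 and 0.92 against 0.12, 0.25 and -0.08, with 45 of 48 probes lower. The 3 WT_plain tumours were thus set apart from the other 17. Both stretches were picked by the difference between the groups, so their probe counts carry no support of their own. In the 14 probes between these stretches, with Skint2 and Skint10, the difference was -0.06, and in 31 probes before the first, with Skint1, Skint7 and Skint8, it was -0.04. In the 24 probes after the second, in Skint5, it was -0.16, with WT_plain at 0.32, 0.37 and 0.51 and Ogg1KO at 0.26, 0.27 and 0.19, also without overlap.

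**Figure D1:**
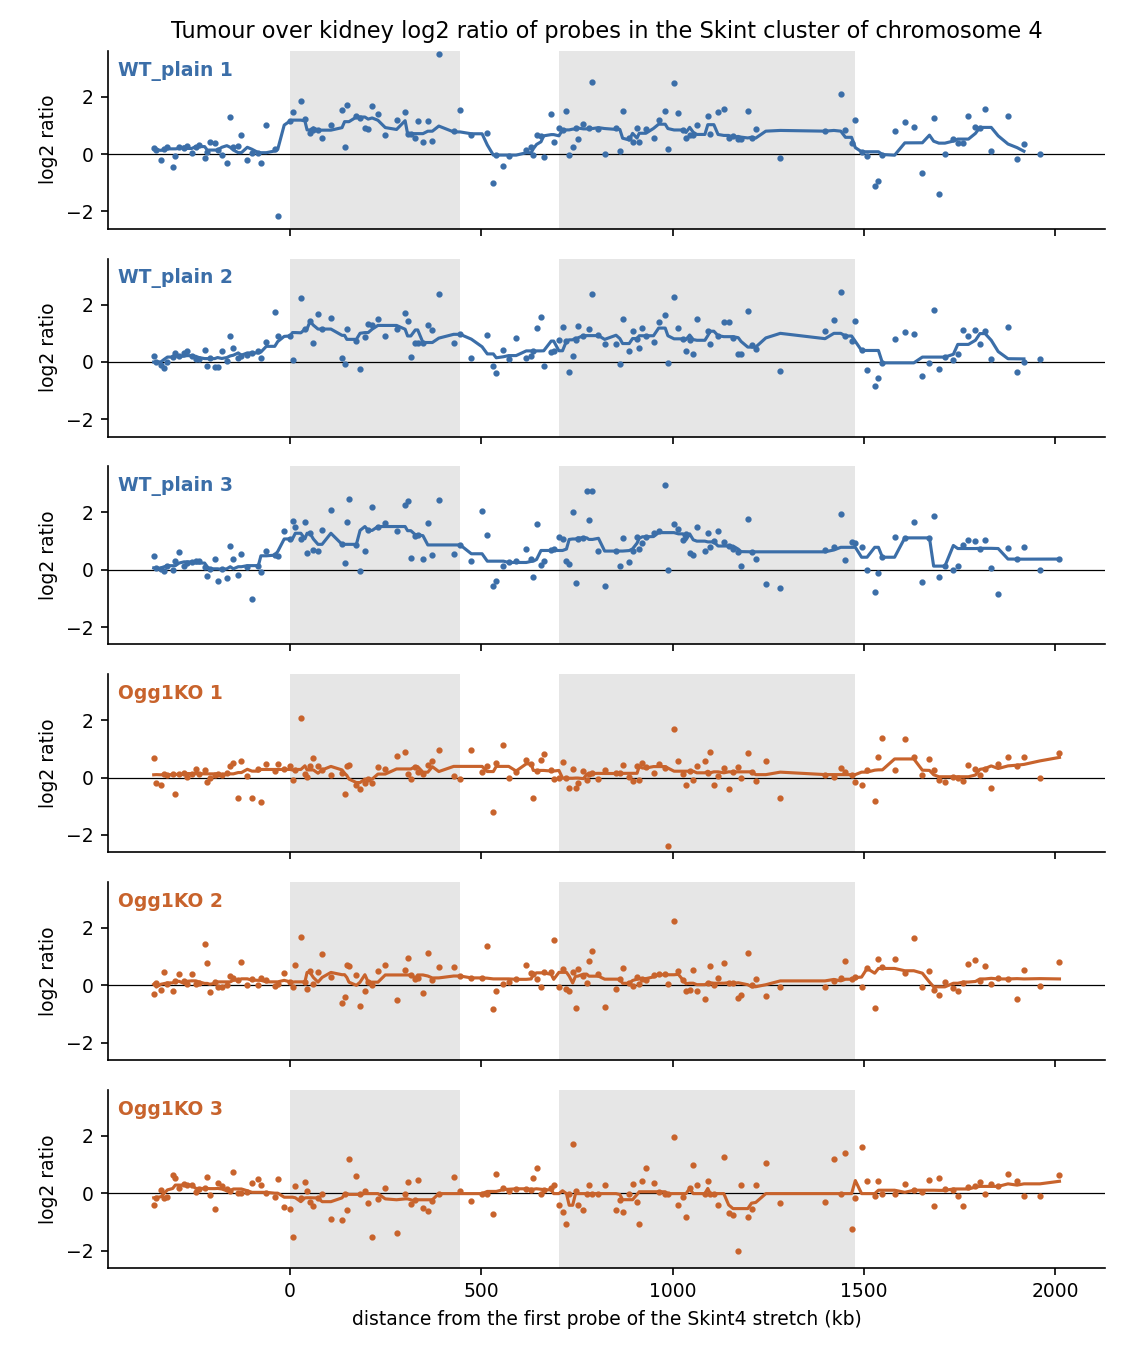
Log2 ratio of tumour over kidney for each probe (points) and the median over neighbouring probes (line) across the Skint cluster, against the distance in kb from the first probe of the first stretch, 1 panel per tumour. The grey bands are the stretches from Skint4 to Skint9 and over Skint6, where the WT_plain lines lie near 1 and the Ogg1KO lines near 0.

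A probe of each of the 4 genes is printed to show what was hybridised. Each was chosen as the probe nearest to its gene's median profile over the 6 tumours. Capitals mark the longest run of at least 16 letters shared with any other probe of the array, on either strand. No such run was shared with a probe of another Skint gene.

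Skint4 probe: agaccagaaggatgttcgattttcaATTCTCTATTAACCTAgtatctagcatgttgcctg
Skint3 probe: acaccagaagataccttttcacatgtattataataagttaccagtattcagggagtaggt
Skint9 probe: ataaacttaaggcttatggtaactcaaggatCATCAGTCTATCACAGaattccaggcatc
Skint6 probe: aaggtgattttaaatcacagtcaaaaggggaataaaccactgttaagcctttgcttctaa

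They lie at chr4:111758445-111758504, chr4:111962345-111962404, chr4:112085584-112085643 and chr4:112785621-112785680. At the Skint6 probe the log2 ratios were 0.84, 0.80 and 1.04 in WT_plain and 0.14, 0.18 and -0.12 in Ogg1KO.

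The signals of each channel were then read separately, as medians over a stretch against the same array's autosomal median, and compared between arrays over the same probes. In the first Skint stretch the tumour signal was -0.09, -0.11 and -0.07 in WT_plain 1 to 3 and -0.16 and -0.17 in Ogg1KO 1 and 2. The kidney signal was -1.25, -1.38 and -1.48 on the WT_plain arrays and -0.47 and -0.63 on those of Ogg1KO 1 and 2. The high wild-type ratios therefore lay with low kidney signals, while the tumour signals of these 5 arrays all lay between -0.17 and -0.07. Ogg1KO 3 had almost no signal in either channel, -4.60 in the tumour and -4.08 in the kidney, with 11.8% and 8.82% of its spots well above background. Its ratio there is a quotient of signals near background.

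The second Skint stretch gave the same order. Tumour signals were -0.10, -0.03 and -0.27 in WT_plain and -0.16 and -0.17 in Ogg1KO 1 and 2, and kidney signals were -0.97, -0.92 and -1.13 against -0.32 and -0.30. In Ogg1KO 3 they were -3.73 in the tumour and -3.80 in the kidney. The same loss of signal in both channels was seen in MutyhKO 1, which shared slide 3 with WT_plain (-3.93 and -3.72 in the first stretch), and in Mth1KO 1 (-4.64 and -4.20). For the Skint6 gene, the 3 Ogg1KO arrays differed from WT_plain by -1.02 in the tumour channel and -0.21 in the kidney channel. Ogg1KO 1 and 2 alone differed from WT_plain by -0.01 in the tumour channel and by 0.72 in the kidney channel. The called difference was thus not seen in the tumour DNA of Ogg1KO 1 and 2. Which animals the kidney DNA came from was not tested.

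**Figure D2:**
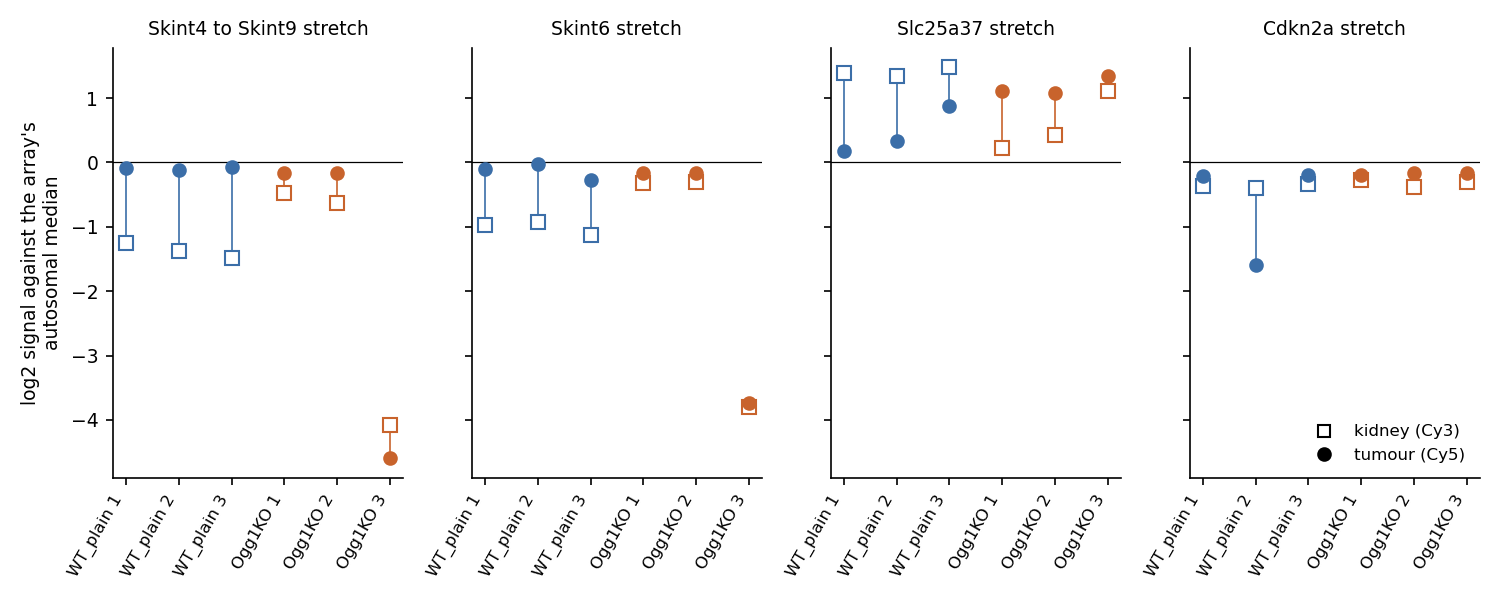
Median log2 signal of the kidney channel (open squares) and the tumour channel (filled circles) over 4 stretches, against the autosomal median of the same array, for each of the 6 arrays. In both Skint stretches the WT_plain arrays differ from Ogg1KO 1 and 2 in the kidney signal and Ogg1KO 3 is low in both channels, while in the Cdkn2a stretch the low point is the tumour signal of WT_plain 2, at -1.60.

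The third stretch of the difference profile ran the other way. It covers chr14:69876584-70090608, with Slc25a37, the mitochondrial iron importer mitoferrin, Entpd4, a nucleotide-hydrolysing enzyme of the Golgi, and Loxl2, which cross-links collagen. Its mean log2 ratio was -1.29, -1.34 and -0.58 in WT_plain and 0.71, 0.58 and -0.12 in Ogg1KO, a difference of 1.46 that corresponds to a 2.75-fold higher ratio. In 20 of 22 probes all 3 Ogg1KO tumours lay above all 3 WT_plain tumours. The stretch was picked by the difference between the groups, so this count carries no support of its own. The stretch also varied among other groups, from -1.23 to 0.83, while the WT_Dmt1 and Dmt1Tg tumours lay between -0.32 and -0.12.

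Slc25a37 (4 probes) stood at -1.38, -1.36 and -0.79 in WT_plain and 0.13, 0.25 and -0.23 in Ogg1KO, a difference of 1.23 (SE 0.24, limma adjusted p = 0.0836), and of 1.37 without Ogg1KO 3 (0.202). Entpd4 differed by 1.57 and Loxl2 by 1.43, with limma adjusted p of 0.160 and 0.246. None of these genes passed the threshold. In this stretch both channels varied. Kidney signals were 1.39, 1.35 and 1.48 on the WT_plain arrays and 0.23, 0.42 and 1.11 on the Ogg1KO arrays. Tumour signals were 0.19, 0.34 and 0.87 against 1.103, 1.07 and 1.34. Ogg1KO 3 was high in both channels, the other knockout arrays in the tumour, and WT_plain 1 and 2 in the kidney. WT_plain 3 was high in the kidney and, at 0.87, also stood above WT_plain 1 and 2 in the tumour.

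The probes nearest to the median profile of Slc25a37 and of Loxl2 are shown, since these stand at the start and in the later part of the stretch, at chr14:69876584-69876643 and chr14:70029955-70030014. In the second the capitals mark the 16 letters that it shares with a probe of Opcml.

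Slc25a37 probe: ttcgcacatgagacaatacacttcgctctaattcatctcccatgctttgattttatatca
Loxl2 probe: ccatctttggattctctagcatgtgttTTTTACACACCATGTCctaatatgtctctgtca

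At the first, the log2 ratios were -2.07, -1.86 and -0.96 in WT_plain and 0.33, 0.31 and -0.25 in Ogg1KO.

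Beyond these stretches, all 3 Ogg1KO tumours lay above all 3 WT_plain tumours in 908 genes (10.1%) and below them in 430 (4.77%), 14.8% together. Of the 908, 728 (80.2%) had the larger group difference in the kidney channel, as had 58.5% of all genes, and 559 had kidney signals that were lower on all 3 Ogg1KO arrays, as had 1582 of all 9021 genes. A ratio holds both channels, so this share is a description and no test. Tumour signals were higher on all 3 Ogg1KO arrays in 109 of the 908 and in 575 of the 9021. Of the 430 lower genes, 271 (63.0%) had the larger difference in the kidney channel, a share near that of all genes, and 160 had kidney signals higher on all 3 Ogg1KO arrays, as had 568 of the 9021.

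Hoxa3, a homeobox gene of embryonic patterning, was among the higher genes with a kidney-channel difference. Its log2 ratios were -1.45, -1.41 and -1.35 in WT_plain and -0.86, -0.93 and -0.46 in Ogg1KO (difference 0.66, SE 0.13, limma adjusted p = 0.0836). The group difference was -0.70 in the kidney channel and -0.05 in the tumour channel. Ppm1g, a protein phosphatase, differed by 0.67 in the ratio, with -0.64 in the kidney and 0.03 in the tumour channel. Inpp5b, an inositol phosphatase, differed by 0.64, with -0.29 in the kidney and 0.34 in the tumour channel, so here the tumour channel had the larger share. Smad7, an inhibitor of TGF-beta signalling, differed by 0.66, or 0.38 without Ogg1KO 3. Their limma adjusted p were 0.103 for Ppm1g, 0.089 for Inpp5b and 0.301 for Smad7.

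Among genes that were lower without overlap, the lysosomal mannosidase gene Man2b2 stood at 0.34, 0.35 and -0.26 in WT_plain and -0.64, -0.55 and -0.51 in Ogg1KO. Its difference of -0.71 (limma adjusted p = 0.235) lay in the tumour channel (-0.72), with 0.00 in size in the kidney channel. By array the tumour signals overlapped, at -0.97, -1.04 and -1.81 in WT_plain against -2.07, -1.79 and -2.12 in Ogg1KO. Ociad1 differed by -0.71 (-0.46 without Ogg1KO 1) and Bbox1, which makes carnitine, by -0.58, with limma adjusted p of 0.270 and 0.251. Xpnpep2, an X-linked aminopeptidase gene, differed by -0.59 (0.487), with 0.37 in the kidney and -0.23 in the tumour channel. Its ratio was lowest in Ogg1KO 3, at 0.23. The tumour signal of the whole chromosome X was also low there, at -0.94, against -0.22 and 0.00 in size in Ogg1KO 1 and 2. For Bbox1 the kidney channel differed by 0.40 and the tumour channel by -0.18.

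**Figure D3:**
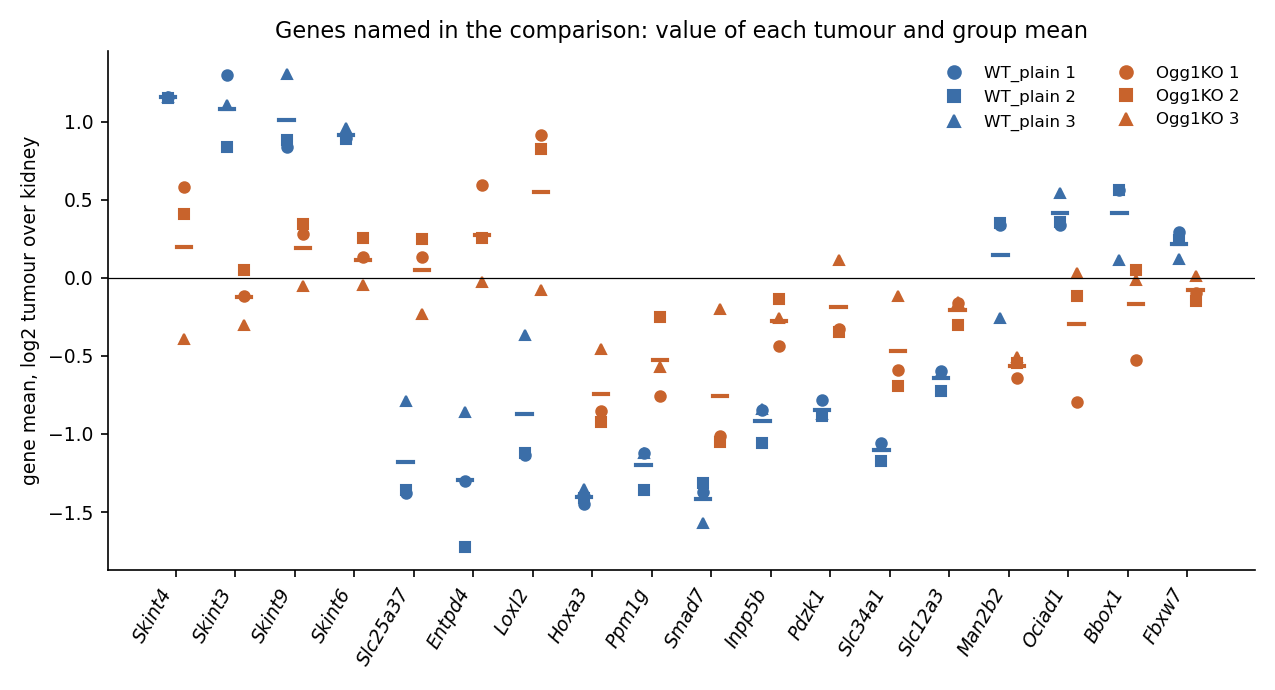
Mean log2 ratio of tumour over kidney per gene (points, 1 per tumour) and group means (dashes) for 18 genes of the comparison. Skint4, Skint3, Skint9 and Skint6 are higher in all 3 WT_plain tumours than in any Ogg1KO tumour, and Slc25a37, Entpd4 and Loxl2 are lower. Of the genes plotted only Skint6 and Skint3 passed the threshold.

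Genes of kidney epithelium were listed after values had been seen, so their counts carry no support of their own. Of 25 with at least 3 probes, 0 passed, 19 had a positive difference and in 10 the 3 Ogg1KO tumours all lay above WT_plain, as in 10.1% of all genes, with a median difference of 0.17. The sodium chloride cotransporter gene of the distal tubule, Slc12a3, stood at -0.60, -0.72 and -0.60 in WT_plain and -0.16, -0.30 and -0.16 in Ogg1KO (difference 0.43, limma adjusted p = 0.0836). Pdzk1, a scaffold of brush-border transporters, stood at -0.78, -0.89 and -0.87 against -0.33, -0.35 and 0.12. Its difference was 0.66, with -0.60 in the kidney channel and 0.05 in the tumour channel. The phosphate transporter gene Slc34a1 differed by 0.64, Slc13a3 by 0.46 and Lrp2, the endocytic receptor megalin, by 0.23. Of the 6 genes with a negative difference, Slc12a1, the cotransporter of the loop of Henle, differed by -0.16, Slc13a1 by -0.15 and Keg1 by -0.16, all with overlap. Over the 25 genes the median group difference was -0.17 in the kidney channel and 0.00 in size in the tumour channel, and kidney signals were lower on all 3 Ogg1KO arrays in 10, beside 1582 of all 9021 genes. The median ratio difference was 0.14 without Ogg1KO 3 and 0.09 with the shared profile removed.

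Of the base excision repair list 24 of 28 genes had a probe and 6 had at least 3. None of the 6 passed, none was free of overlap, and 4 of 6 differences were positive, with a median of 0.11. Neil3, a glycosylase for oxidised bases, had the smallest p of the list. It stood at -0.49, 0.01 and 0.02 in WT_plain and 0.10, -0.04 and 0.32 in Ogg1KO (limma adjusted p = 0.685), a difference of 0.28 that fell to 0.11 without WT_plain 1. The ligase gene Lig3 differed by 0.17 and Lig1 by 0.16. Mutyh, whose glycosylase removes adenine opposite oxidised guanine, had 2 probes and so was not tested; its values were 0.46, -0.76 and -0.86 against -0.96, -0.50 and -0.28, with overlap. For Nudt1, which clears oxidised nucleotides, no probe carried the name.

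Of 22 double-strand break repair and checkpoint genes 0 passed, 12 differences were positive and 4 lay above without overlap (10.1% of all genes did), Fanca, Brca1, Palb2 and Nbn (median 0.01, and 0.00 in size without Ogg1KO 3). Brca1, which acts in homologous recombination, stood at -0.40, -0.46 and -0.37 in WT_plain and -0.20, -0.24 and -0.20 in Ogg1KO (difference 0.19, limma adjusted p = 0.470). Rnf168, a ubiquitin ligase of the break response, differed by 0.50, or 0.15 without WT_plain 1, and the checkpoint kinase gene Atr by -0.13, both with overlap. Of 23 long genes at fragile sites 0 passed and 19 differences were negative, 6 without overlap (4.77% of all genes), with a median of -0.05. Without Ogg1KO 3 the median was -0.02, and 8 differences were positive in place of 4. Lrp1b, a very long receptor gene with 192 probes, stood at 0.31, 0.34 and 0.32 against 0.18, 0.27 and 0.18 (difference -0.11, limma adjusted p = 0.538). Dlg2 differed by -0.10 and Macrod2 by -0.09, both without overlap.

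Among 18 tumour suppressors with at least 3 probes 0 passed, 9 differences were positive and 9 negative, and the median was 0.01. Fbxw7, the substrate receptor of a ubiquitin ligase, stood at 0.29, 0.24 and 0.12 in WT_plain and -0.10, -0.15 and 0.01 in Ogg1KO, below without overlap. Its difference of -0.30 (SE 0.09, limma adjusted p = 0.294) did not pass, and by channel it was 0.44 in the kidney and 0.14 in the tumour. Nf2, the Hippo pathway suppressor often lost in mesothelioma, stood at 0.00 in size, -0.14 and -0.28 against -0.14, 0.03 and -0.26. Setd2 differed by -0.11, Pbrm1 by 0.14, Lats2 by 0.09, Rb1 by -0.08 and Nf1 by -0.06, each with overlap. Tsc2 differed by -0.40 and Smad4 by -0.35 (-0.20 without Ogg1KO 1) with overlap, and Setdb1, a histone methyltransferase gene, by 0.30 without overlap (limma adjusted p = 0.528, 0.448 and 0.513). Differences of Tsc1 (-0.10), Ptch1 (0.10), Sufu (0.17), Arid1a (0.10), Ulk2 (0.00 in size) and Apc (-0.04) also came with overlap. Trp53, with 2 probes, was -0.72, -0.78 and -0.73 against -0.75, -0.79 and -0.26, and Lats1, with 2, differed by 0.17. Rassf1, with 1 probe, differed by 0.79 and Cdkn1a, with 1, by -0.13, and none of these 4 was tested.

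Of 16 Hippo pathway genes 0 passed and 11 differences were positive (median 0.05). This lean did not hold: without Ogg1KO 3 it was 8 of 16 (median 0.00 in size), and with the shared profile removed 6 of 16 (median -0.02). The groups did not overlap in 4 of them, as in 14.8% of all genes. These were Wwtr1 at 0.11 and Taok1 at 0.12 above, and Mob1b and Stk3, at -0.08, below. Mob1b, a co-activator of the Lats kinases, differed by -0.23. With overlap, Wwc1 differed by 0.21 and Amotl1 by 0.26 (0.10 without WT_plain 2, which had a low segment there). Tead1, a transcription factor of the pathway, differed by 0.14 with overlap (0.06 without Ogg1KO 3). Of 13 genes of iron handling and ferroptosis 0 passed and 6 differences were positive (median -0.01). Without overlap lay 3 of them (14.8% of all genes did): Slc25a37, Ireb2 at 0.23 and Fbxl5 at -0.16. The value of Ireb2 rested on Ogg1KO 3 and was 0.07 without it. Ireb2 and Fbxl5 encode sensors of cellular iron. Bmp6 differed by 0.13 and the cystine transporter gene Slc7a11 by -0.16 with overlap. Of 18 oncogenes 0 passed and 10 differences were positive (median 0.03). Bcl2l1, an inhibitor of cell death, stood at -0.72, -0.91 and -0.79 against -0.52, -0.68 and -0.23, a difference of 0.33 (limma adjusted p = 0.433), or 0.21 without Ogg1KO 3. Pik3ca differed by 0.15, Pdgfra by 0.19 and Mdm4 by -0.27 with overlap. Of 12 mesothelial and mesenchymal genes 0 passed and 9 differences were negative (median -0.01).

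At an unadjusted limma p under 0.05 lay 5 of the 18 tumour suppressors, 3 of 16 Hippo, 1 of 13 iron, 3 of 22 break repair and 1 of 18 oncogenes, 10 of 25 kidney genes, and 0 of the base excision repair, fragile-site and mesothelial genes, beside 9.36% of all genes. Without Ogg1KO 3 these were 2 of the 18 tumour suppressors, 0 of the 22 break repair genes and 7 of the 25 kidney genes, with the Hippo, iron and oncogene counts as before.

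Multigene families other than Skint gave 0 called genes, and 1 gene, Cyp2j13, at an unadjusted limma p under 0.05. Differences were positive in 13 of 28 vomeronasal receptor genes, 16 of 28 cytochrome P450 genes, 2 of 6 serpins, 1 of 2 olfactory receptor genes, 3 of 3 Klra genes and 0 of 1 defensin. Their medians were -0.03, 0.05, -0.06, 0.00 in size, 0.11 and -0.03. Vmn2r101 differed by -0.42 with overlap, and Cyp2j13, at -1.11, -0.71 and -0.70 against -0.43, -0.59 and -0.16, by 0.45 without (limma adjusted p = 0.407). Probes of such families may share reads of near-identical copies, so single genes of them are uncertain. Kallikreins and major urinary proteins had no gene with 3 probes.

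The low segments that set single tumours apart were in WT_plain 2. After the profile shared by the 14 tumours of other groups had been removed, it had a loss over chr4:88357461-94074848, 5.72 Mb with Cdkn2a, Mtap, a purine salvage enzyme gene beside it, and the neuronal gene Elavl2. On the ratios as centred, the segment that held Cdkn2a was shorter, chr4:88341964-89363059, 1.02 Mb at a mean of -1.35. The mean log2 ratio of the longer stretch was -1.13 in WT_plain 2, a linear ratio of 0.457. It was 0.19 and 0.24 in WT_plain 1 and 3 and 0.14, 0.26 and 0.12 in Ogg1KO 1 to 3, and over all other 19 tumours it ran from -0.04 to 0.26. By channel, WT_plain 2 stood at -1.60 in the tumour and -0.39 in the kidney, and the kidney signals of the other 5 arrays lay between -0.39 and -0.28. Here the loss was thus in the tumour channel.

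Both Cdkn2a probes are printed as the direct readings of that gene, at chr4:88927265-88927324 and chr4:88936288-88936347. Capitals in the second mark a 16-letter run shared with a probe on chromosome 1.

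Cdkn2a first probe: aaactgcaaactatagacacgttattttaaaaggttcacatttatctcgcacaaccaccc
Cdkn2a second probe: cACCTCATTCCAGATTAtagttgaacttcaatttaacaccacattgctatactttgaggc

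Their log2 ratios in WT_plain 2 were -1.64 and -1.92. The gene mean was 0.13, -1.78 and 0.02 in WT_plain and -0.16, -0.06 and -0.20 in Ogg1KO. Mtap stood at -0.02, -1.27 and 0.00 in size against 0.13 in each of Ogg1KO 1 to 3. The loss was seen in 1 wild-type tumour of 3 and 0 knockout tumours of 3. Cdkn2a had too few probes for the fit, and Mtap differed by 0.56, which did not pass (limma adjusted p = 0.481), and by 0.14 without WT_plain 2.

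**Figure D4:**
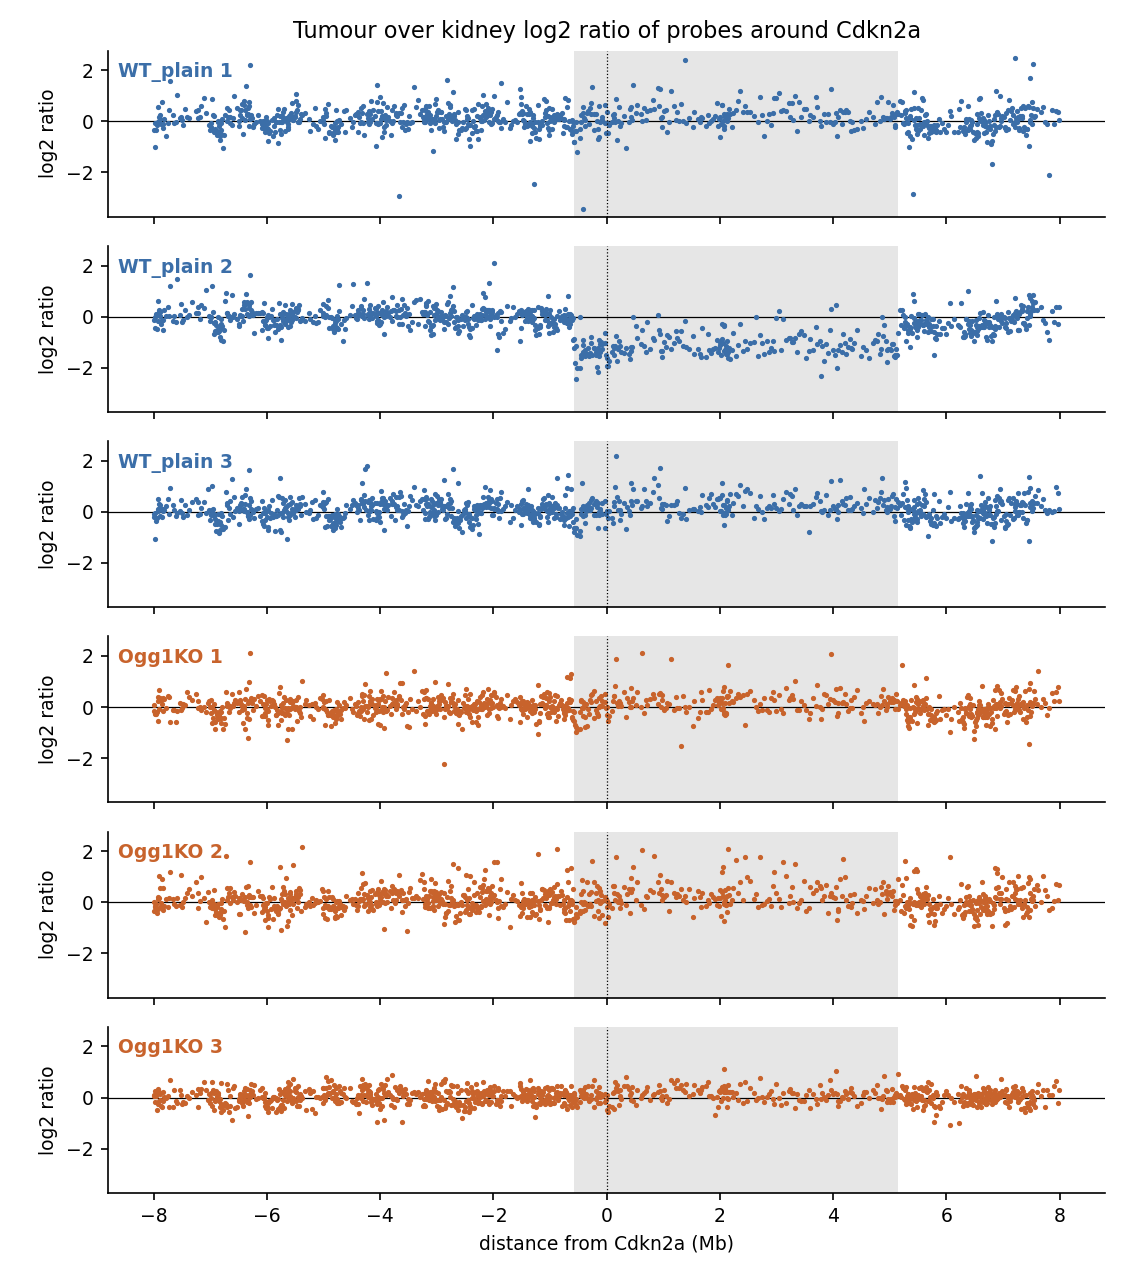
Log2 ratio of tumour over kidney for each probe against the distance in Mb from Cdkn2a (dotted line), 1 panel per tumour. Within the grey band, the stretch of 5.72 Mb, WT_plain 2 lies near -1.13 and the other 5 tumours lie between 0.12 and 0.26 on average.

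Segments whose mean lay at least 0.2 beyond all other 19 tumours, a gap chosen after values had been seen, numbered 7. All of them were in WT_plain 2 and below the other tumours, and they held 23.7 Mb in total. Among the 6, the other 5 tumours had 0. Of these segments only the Cdkn2a stretch was read by channel, so the rest are given as low ratios. Besides Cdkn2a, the largest by probe number were adjoining segments of chromosome 2. They were chr2:164196076-167977604 at -0.82, with the matrix protease gene Mmp9, and chr2:167989407-174684072 at -0.44, with the mitotic kinase gene Aurka and the growth factor gene Bmp7. In the first of these the other 5 tumours stood between -0.45 and -0.29. A segment over chr9:9831189-14788676 at -0.39 held Mre11a, of the break-repair complex, and Amotl1, a partner of Yap, where the other 5 stood between 0.07 and 0.19. The remaining 3 were chr13:117165113-118922925 at -0.44 with Parp8, chr7:81016890-81162700 at -0.66 with St8sia2, and chr2:24765748-25414670 at -0.94 with Ehmt1. The stretch with Ehmt1 was low in all tumours and lowest in WT_plain 2, with the other 19 between -0.71 and -0.19.

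Numbers of called segments after the same correction overlapped between the genotypes, with WT_plain 2 and 3 above the rest. At a size of at least 0.2, WT_plain 1 to 3 had 6, 61 and 27 autosomal segments and Ogg1KO 1 to 3 had 9, 1 and 12. Segments below 0 after the correction made up 4, 51 and 25 of these in WT_plain and 7, 0 and 12 in Ogg1KO. These include regions low in all 6 tumours, so they are not counts of separate losses. Over chr10:79008963-81123305, a segment of WT_plain 2, the values were -0.85, -1.07 and -1.03 in WT_plain and -0.81, -0.70 and -0.58 in Ogg1KO. The median of the other 19 tumours was -0.50. The Skint and Slc25a37 stretches, read by channel above, are also among the called segments. The single segment of Ogg1KO 2 was the Slc25a37 stretch. Ogg1KO 1 was high over chr12:105048428-105263855 at 1.08, with the serpin genes Serpina1e and Serpina11, where Ogg1KO 2 reached 0.95, Ogg1KO 3 stood at -0.05 and the 3 WT_plain tumours lay between -0.43 and 0.11. Ogg1KO 3 was low over chr15:98333856-98455144 at -0.94, with Ccnt1, a cyclin of transcription elongation, but WT_plain 2 reached -0.93 there.

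The share of autosomal probes in called segments, at or beyond 0.2 in size, was 20.0%, 37.4% and 35.3% in WT_plain 1 to 3. It was 17.7%, 25.03% and 8.65% in Ogg1KO 1 to 3. At these settings the groups overlapped, since Ogg1KO 2 lay above WT_plain 1. The means were 30.9% ± 9.50 and 17.1% ± 8.21 (SD, n = 3 each), a difference of -13.8 percentage points (exact two-sided permutation p = 0.2), or -9.56 without Ogg1KO 3. With 20 splits the smallest p is 0.1, so no difference of shares could pass 0.05 in this design.

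Lost shares were 14.3%, 22.4% and 19.9% in WT_plain and 15.4%, 14.1% and 8.57% in Ogg1KO, a difference of -6.17 points (exact permutation p = 0.2). Gained shares were 5.71%, 15.1% and 15.4% against 2.33%, 10.9% and 0.0768%, a difference of -7.64 points (exact permutation p = 0.2). Breakpoints numbered 353, 919 and 629 against 440, 371 and 124, a difference of -322 (exact permutation p = 0.3), or -179 without WT_plain 2. Against all 7 wild-type tumours the altered share was 2.31 points higher in Ogg1KO (exact permutation p = 0.8), since the 4 WT_Dmt1 tumours had shares of 0.286% to 5.63%. Those 4 arrays were of another slide and scan day, so wild-type set and scan day cannot be told apart there. With the shared profile removed, the altered shares were 0.446%, 10.2% and 7.22% in WT_plain and 0.920%, 0.0142% and 1.26% in Ogg1KO, a difference of -5.22 points (exact permutation p = 0.3).

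**Figure D5:**
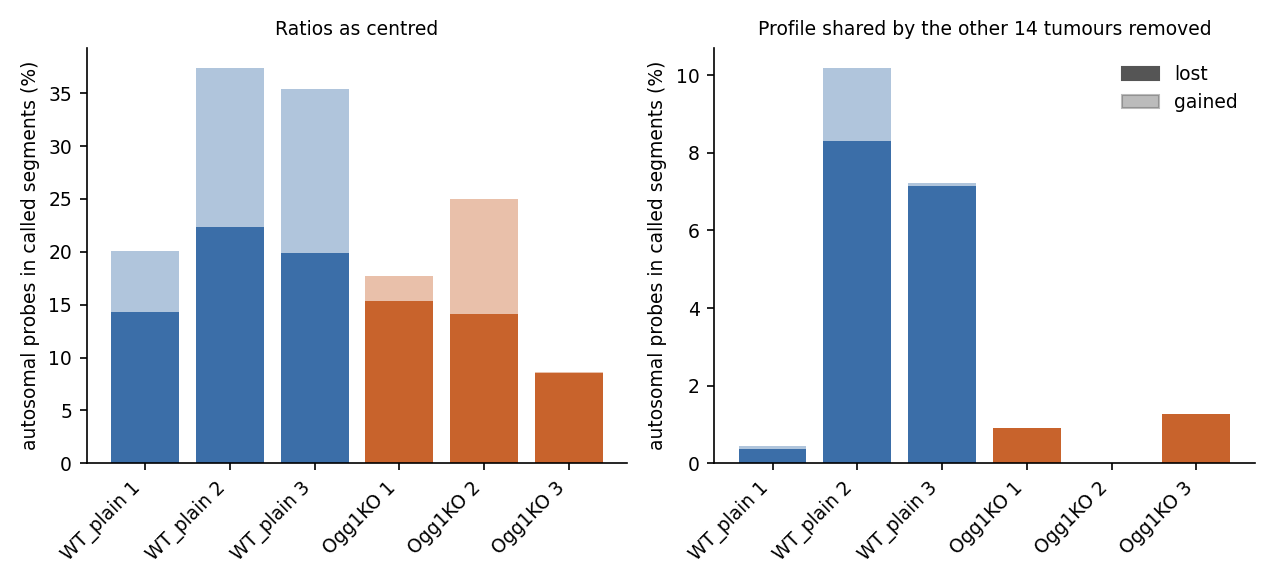
Percent of autosomal probes in lost (dark) and gained (light) segments in each tumour, from the centred ratios (left) and after removal of the profile shared by the other 14 tumours (right, with its own scale). On the left the altered share runs from 8.65% in Ogg1KO 3 to 37.4% in WT_plain 2, and on the right WT_plain 2 and 3 have the tallest bars.

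Over the 19 whole autosomes the means of the 6 tumours ran from -0.19 to 0.07, and differences between the genotypes ran from -0.02 to 0.05. The exact permutation test could not pass 0.05 for any of them, since its smallest p is 0.1. Chromosome X stood at 0.92, 0.94 and 0.69 in WT_plain and 0.81, 1.08 and 0.01 in Ogg1KO. Chromosome Y, over 115 probes, stood at -2.44, -2.41 and -0.89 against -2.68, -3.29 and 0.07. By channel the kidney signal of X was alike on all 6 arrays, between -1.02 and -0.97, as was that of Y, between -1.19 and -0.96. The tumour signals carried the differences: on X they were -0.08, -0.06 and -0.34 in WT_plain and -0.22, 0.00 in size and -0.94 in Ogg1KO. On Y they were -3.71, -3.67 and -1.85 against -4.19, -5.02 and -0.95. In Ogg1KO 3 alone of the 6 did both ratios lie near 0, and in the other 5 the tumour had more X and less Y signal than the kidney. The labels name no sex, and whether tumour and kidney DNA were matched for it was not tested.

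In DNA, lymphocytes can be read only by the deletions of V(D)J joining at their receptor loci. In the 300 kb before Dad1, at the T-cell receptor alpha and delta locus (33 probes), the log2 ratios were 0.13, 0.10 and -0.02 in WT_plain and -0.06, -0.03 and 0.02 in Ogg1KO, while the lowest of the other 14 tumours was -0.73. The beta locus stood between -0.01 and 0.07 and the gamma locus between 0.06 and 0.18 in the 6 tumours. None of the 6 had a loss at these loci. At the kappa light-chain locus of B cells (20 probes) the ratios were 0.41, 0.27 and 0.20 against 0.14, 0.23 and 0.08.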

How the data were processed

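Log2 ratios of tumour (Cy5) over kidney (Cy3) came from 20 dual-colour scanner files, 3 of Ogg1KO and 3 of WT_plain compared. Feature Extraction 10.7 was used per the submitters' processing notes. Per the file headers, the authors' deposited ratio column is a log10 value (Cy5 divided by Cy3) made from the intensity of each channel after background subtraction, detrending and linear dye normalisation, on mm9. The deposited log2 value table differed from these by at most 6.29e-07. There were 0 columns of other samples.

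Of 180880 spots, 174305 are no controls. Outlier spots and array patches (local median of a window of 21 spots over 0.5 from the array median) were left out, with no loess step. Arrays were centred on the autosomal median, and gene means used at least 3 probes. The fit was limma 3.58.1 (R 4.3.3) over all 20 tumours in 6 groups, tested on simulated data. Shares used penalised least-squares segments (penalty 40 times each array's own noise variance, at least 5 probes, threshold 0.2) and exact permutation. They were run in Python 3.11.15 with numpy 2.4.6, pandas 2.3.3, scipy 1.17.1, numba 0.67.0 and matplotlib 3.10.9. Gene names are those of the array, of which 1547 of 21138 were updated through a RefSeq table and 5908 kept without a match.

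Genes were named if called, if among the up to 10 largest differences without overlap in each direction, as tumour suppressors, or as up to 4 per list of smallest p, and segments by size. Of the largest differences, 3 known only by a transcript ID are not described, and some other genes covered by it are not reported here. Palb2, Nbn, Fbxl5, Wwtr1, Taok1, Stk3, the kidney genes other than Pdzk1 and Slc34a1, and the genes given for segments were named after their values were seen. The 6 tumours, lists and rules were chosen with earlier results of these data known, and the readings by channel were added after seeing the data. The labels do not tie the tumours to separate animals, so p-values weigh only the spread of these arrays, which may be technical. Precision is limited by having 3 arrays a group.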

Additional observations from a re-analysis of the deposited data

How the results depend on the processing

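Main counts were 0 genes called higher in Ogg1KO, 2 genes called lower in Ogg1KO and 1 of the 1 Mb bins called different. With array patches kept they were 238, 13 and 311, and with normexp background correction 31, 2 and 50. Lower genes numbered 0 in the fit of the 6 tumours, in that of the 12 of the scan day, with the slide as a random block or as a fixed term and against all 7 wild-type tumours, 1 with kidney signal well above background and with at least 1 probe per gene, and 4 with at least 5 probes, which also gave 1 higher. With the shared profile removed, an alternative added after seeing the data, 4 were lower and 2 bins called. Bins numbered 0 with the slide as a fixed term and against 7 wild-type tumours, and 4 with kidney signal well above background. Leaving out each tumour gave 0 to 2 higher (2 without Ogg1KO 1), 1 to 2 lower (1 without WT_plain 1, 2 or 3 or Ogg1KO 2) and 1 to 3 bins (3 without Ogg1KO 2).

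The replicate block gave 0 higher, 0 lower and 12 bins. Deviations of same-numbered tumours correlated at 0.018, 0.001 and 0.109, so the numbers were not taken to pair tumours.

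Differences of shares kept their sign except against all 7 wild-type tumours, where the altered share was 2.31, the lost share 3.82 and the breakpoints 20.4. Without 1 tumour they ran from -19.3 to -9.56 (altered), -8.44 to -4.10 (lost), -10.9 to -5.46 (gained) and -462 to -179 (breakpoints). The overlap of altered shares depended on the setting. With penalty 80, centring on the mode or normexp background correction the groups did not overlap (exact permutation p = 0.1 each, the smallest possible). With 1 penalty from the noisiest array in place of each array's own, breakpoints numbered 353, 432 and 426 in WT_plain. In Ogg1KO 1 to 3 they numbered 306, 308 and 56, also at an exact permutation p of 0.1. Of 1615 values of 80 named genes under alternatives, 1440 stayed, 130 moved by over 1 SD, 24 passed the threshold only there, 21 of the called genes lost it and 0 of those reversed. The causes were not tested. Probes with kidney signal not well above background on all 6 arrays numbered 48901, so ratios there rest on dim kidney spots.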

Other observations

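Arrays outside the comparison showed the same stretches in other combinations. In the first Skint stretch, the kidney signal of WT_Dmt1 and Dmt1Tg arrays lay between -0.40 and -0.19 and the tumour signal between -0.28 and 0.07, with 85.3% to 97.1% of kidney spots well above background. On WT_plain arrays 44.1% to 48.4% were. In the Slc25a37 stretch MutyhKO 3 had a kidney signal of 0.10 and a tumour signal of 1.22, near those of Ogg1KO 1 and 2. MutyhKO 2 (1.37 and 0.54), Mth1KO 2 (1.43 and 0.30) and Mth1KO 3 (1.29 and 0.34) were high in the kidney channel, as WT_plain 1 and 2 were. MutyhKO 1 (1.44 and 1.32) and Mth1KO 1 (1.26 and 1.26) were high in both channels, as was Ogg1KO 3. The same 3 tumours, without Skint signal in either channel, had the lowest weights on the shared profile, 0.36 for Ogg1KO 3, 0.41 for MutyhKO 1 and 0.59 for Mth1KO 1.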
